A study of Mus musculus with 16 samples.

Results

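RNA was sequenced from RAW264.7 cells, a mouse line with macrophage features that grew out of a virus-induced tumour, after the lipid transfer proteins ORP5 and ORP8 or the flippases of the genotype label ATP11A/C had been targeted. The comparison takes the 4 libraries of the genotype ORP5/8 KD (KD, knockdown) and the 4 of the genotype ATP11A/C KD, 8 libraries of 16 in all. The other 8 are 4 libraries of Parental, used here as the control level, and 4 of CDC50A KD, used only in estimating the spread and for the level of Osbpl8. All groups are the line RAW264.7(TIB-71), plated in 6-well plates in complete medium and collected a day later, and no treatment, phagocytic cargo or stimulus is named. Library names of the KD groups carry the prefix "sh", which the labels leave unexplained, and Parental is not described as having received a construct, so introducing one cannot be told apart from the targeting in a comparison with Parental. Both KD groups of the direct comparison carry the prefix. The labels do not say whether a KD genotype is a single clone or a pool, nor that the numbered replicates came from separate cultures. The p-values below therefore rest on how far these libraries spread, and that spread may be technical only.

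Phosphatidylserine is made in the endoplasmic reticulum (ER) and is kept on the cytoplasmic side of the plasma membrane in living cells. ORP5 and ORP8, the products of Osbpl5 and Osbpl8, sit in the ER and hand phosphatidylserine to the plasma membrane at contact sites in exchange for phosphoinositides. ATP11A is a P4-type ATPase, one of the flippases that move phosphatidylserine from the outer to the inner leaflet and that need the subunit CDC50A (Tmem30a) to leave the ER. Loss of lipid transfer therefore removes a supply route, and loss of flippases a mechanism that keeps the lipid inside. The series title places both in phosphatidylserine clustering and LC3-associated phagocytosis, the uptake route in which LC3 is attached to the phagosome. In macrophages, phosphatidylserine on the surface of dying cells is the signal that phagocytic receptors read.

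The 8 libraries held 31771196 to 41543050 counts each. The first principal component placed the ORP5/8 KD libraries at 22.7 to 23.9, the ATP11A/C KD libraries at -0.57 to 1.93 and the Parental libraries at -19.0 to -17.1. Mitochondrial genes took 1.68% ± 0.112 (SD, n = 4) of the counts in ORP5/8 KD and 1.56% ± 0.194 in ATP11A/C KD (exact permutation test, 2-sided p = 0.314, where the smallest possible p is 0.0286). Parental stood at 1.19% ± 0.0744, with each of its libraries below every library of both KD groups; the part of this share in the differences from Parental was not tested. Of 9 macrophage markers, 8 were present in all 8 libraries, from Lyz2 at 2470 to 4290 CPM down to Fcgr1 at 76.3 to 124 CPM (CPM, counts scaled to a common library size with TMM), while Mertk stood at 0.0263 to 0.198 CPM. Summed markers of fibroblasts, lymphocytes, neutrophils with mast cells, and epithelium reached at most 0.526 CPM in any of the 8 libraries, and those of dendritic cells 4.48 to 5.88 CPM.

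The targeted genes only in part matched the labels. Osbpl8 stood at 109, 98.03, 89.4 and 99.8 CPM in ORP5/8 KD 1 to 4 and at 116, 124, 133 and 136 CPM in ATP11A/C KD 1 to 4, against 337 ± 5.84 in Parental (n = 4 in every group). Both KD groups thus lay below Parental, at 29.4% and 37.6% of its mean. CDC50A KD, at 116 ± 4.41 CPM, was below Parental too, so low Osbpl8 RNA was shared by all KD groups of the series. Between the groups compared, the ORP5/8 KD libraries were the lower set without overlap (log2 fold change ORP5/8 KD against ATP11A/C KD -0.36 ± 0.0553, the error being the standard error, adjusted p = 2.64e-05). Osbpl5 had 2 to 13 counts in each of the 8 libraries and was not testable by edgeR. Its levels were 0.315, 0.163, 0.172 and 0.0537 CPM in ORP5/8 KD and 0.0989, 0.391, 0.24004 and 0.06203 CPM in ATP11A/C KD, ranges that overlap throughout (exact permutation test of log2(CPM + 0.1), 2-sided p = 0.943, smallest possible 0.0286). The sign of the Osbpl5 difference turned when ORP5/8 KD 4, ATP11A/C KD 2 or ATP11A/C KD 3 was left out.

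Atp11a separated the groups. It was 53.97, 52.5, 53.5 and 53.2 CPM in ORP5/8 KD and 22.6, 20.6, 21.1 and 21.2 CPM in ATP11A/C KD, 2.49 times higher in the former (log2 fold change 1.31 ± 0.0435, adjusted p = 1.72e-15), with Parental at 61.4 ± 1.91. Tmem30a, the shared subunit, overlapped between the groups, at 143, 128, 118 and 134 CPM in ORP5/8 KD and 126, 158, 141 and 143 CPM in ATP11A/C KD (log2 fold change -0.12 ± 0.0609, adjusted p = 0.124; without ATP11A/C KD 1, -0.17 and 0.0217). The group names below are those of the labels. At the RNA level the comparison therefore sets libraries low in Osbpl8 against libraries low in both Osbpl8 and Atp11a.

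**Figure D1:**
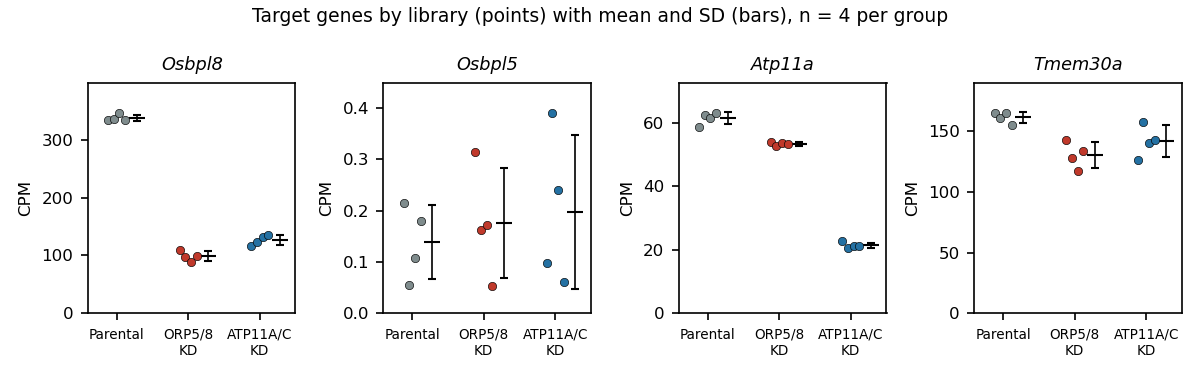
Level of Osbpl8, Osbpl5, Atp11a and Tmem30a in CPM (y axis, from 0) in the 4 libraries of Parental, ORP5/8 KD and ATP11A/C KD (points), with the mean and SD beside them (bars). Atp11a is lowest in ATP11A/C KD at 20.6 to 22.6 CPM, Osbpl8 is below Parental in both KD groups, and the Osbpl5 and Tmem30a points of the KD groups overlap.

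Over all genes, 13107 passed the low-count filter, and edgeR's quasi-likelihood test called 2392 higher (18.2% of those tested) and 2678 lower (20.4%) in the ORP5/8 KD libraries, relative to ATP11A/C KD, at a Benjamini-Hochberg adjusted p under 0.05, or 38.7% in all. Of the 5070 called genes, 3990 did not overlap between the 4 and 4 libraries. Most differences were small: 311 higher and 288 lower genes changed at least 2-fold, and the median absolute log2 fold change of the called genes was 0.32. The median over all genes tested was -0.00292. Of the calls, 47.2% were in the higher direction; with upper-quartile scaling, which moved that median by 0.05, the figure was 60.5%. For orientation, ORP5/8 KD had 22% of genes called higher and 24.3% lower than Parental, and ATP11A/C KD 17.4% and 20.2%; both comparisons share the Parental libraries.

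**Figure D2:**
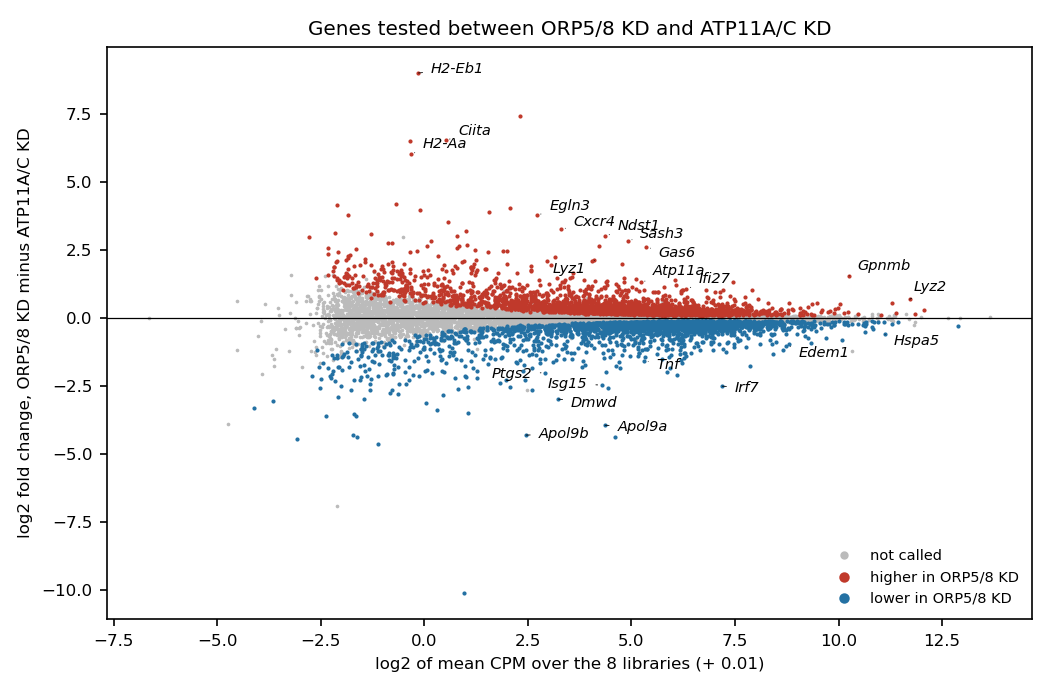
Each point is a gene tested, with the log2 of its mean CPM over the 8 libraries on the x axis and its log2 fold change (ORP5/8 KD against ATP11A/C KD) on the y axis (red, called higher; blue, called lower; grey, not called). Interferon-stimulated genes such as Apol9b (-4.30) and Irf7 (-2.501) lie at the lower edge, and Egln3 (3.78) and Cxcr4 (3.27) at the upper edge. Ciita lies above them at a low level and passed the low-count filter only through ORP5/8 KD, so that it had to be higher there.

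Gene lists covering lipid transport, phagocytosis, immunity, stress and the cell cycle were described by their counts and medians, to be read against the 18.2% and 20.4% of all genes called. The lists with the lowest medians were interferon-stimulated genes (-1.18), chemokines (-0.86), inflammatory effectors (-0.82), MHC class I (-0.47), NF-kB (-0.39), the unfolded protein response (-0.38) and ATF4 targets (-0.33). Canonical autophagy, LXR targets and lysosome had medians of 0.17, 0.15 and 0.12. No median is compared for MHC class II, since 5 of its 9 tested members passed the low-count filter only through ORP5/8 KD.

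**Figure D3:**
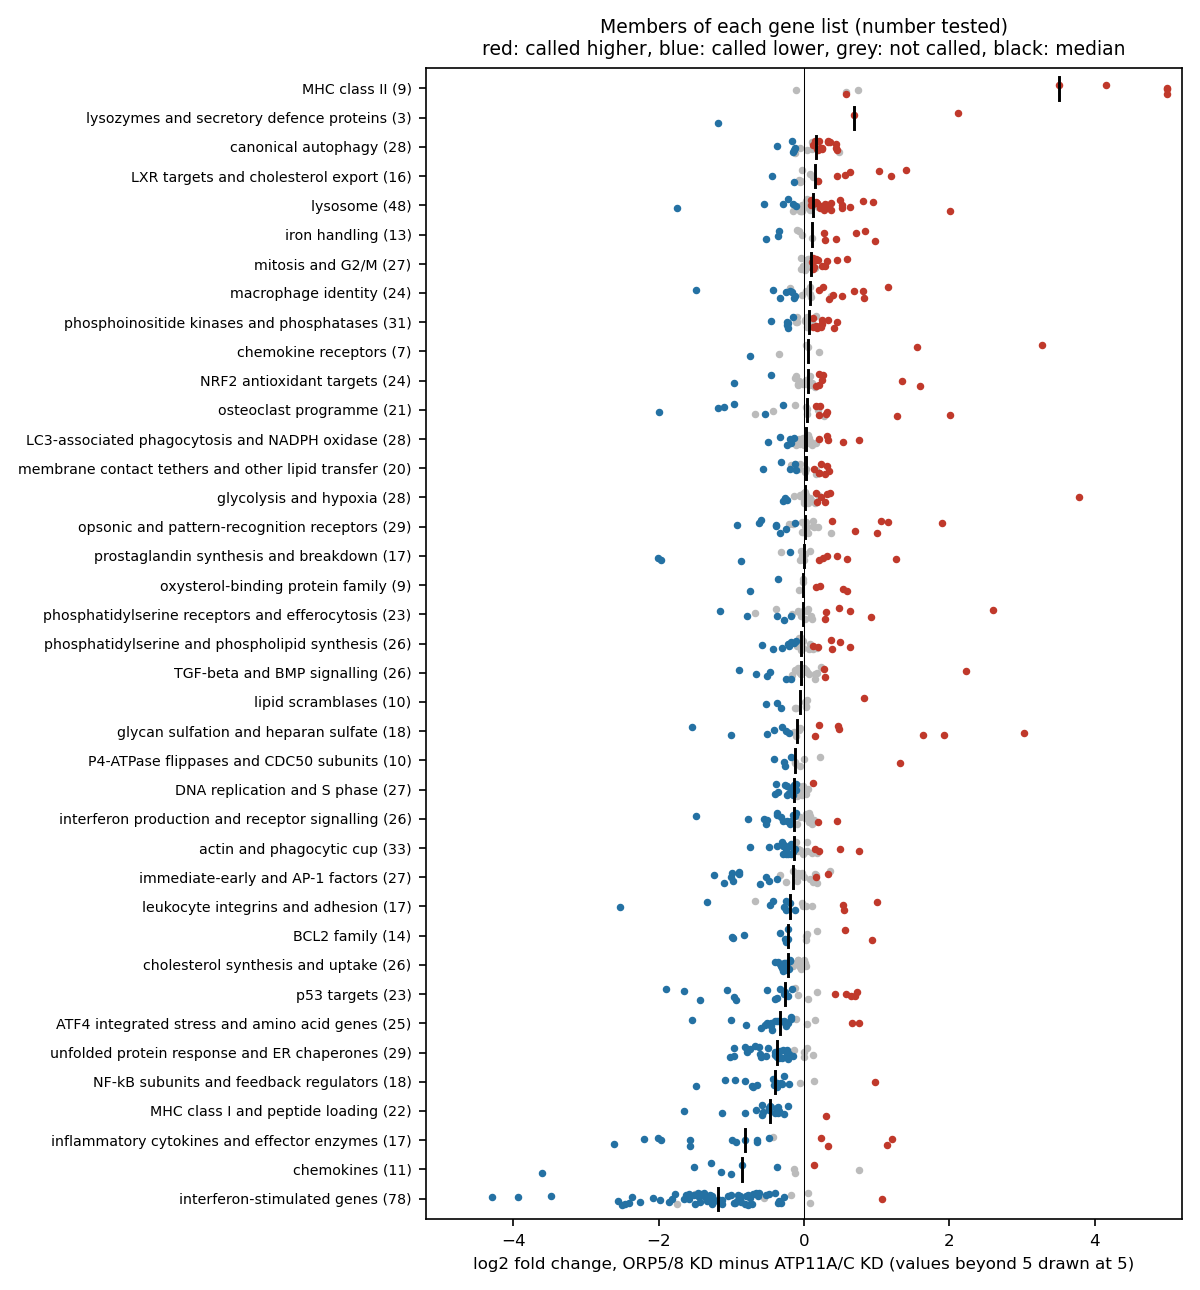
Members of 39 gene lists (number tested in brackets) by log2 fold change, ORP5/8 KD against ATP11A/C KD (x axis; red, called higher; blue, called lower; grey, not called; black bar, median). The interferon-stimulated list lies furthest to the left, with 71 of 78 members called lower and Ifi27 alone called higher.

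Interferon-stimulated genes are the antiviral genes switched on by type I interferon through a complex that holds STAT2 and IRF9 and binds interferon-stimulated response elements in their promoters. Of 78 tested, 71 were lower in ORP5/8 KD (91%, against 20.4% of all genes), 1 was higher and 6 were not called, with a median log2 fold change of -1.18. ATP11A/C KD was itself below Parental for 75 of the 78 (median -1.07), and ORP5/8 KD for 76 (median -2.22). Over all genes, 20.2% and 24.3% were called lower than Parental. ORP5/8 KD was thus the lower of 2 lowered groups, and these comparisons share the Parental libraries. As bulk RNA was measured, fewer expressing cells and less RNA per cell cannot be told apart here or below.

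Isg15, the ubiquitin-like protein conjugated to proteins in antiviral defence (mm10 chromosome 4, 156199424 to 156200818, minus strand), was 5.34, 5.95, 7.74 and 4.83 CPM in ORP5/8 KD and 31.4, 34.9, 31.9 and 33.6 CPM in ATP11A/C KD, against 118 ± 5.32 in Parental. Every ORP5/8 KD library was below every ATP11A/C KD library, by 5.53 times in the means (log2 fold change -2.46 ± 0.105, adjusted p = 9.79e-14). Irf7, the factor that amplifies interferon production, was 42.2, 41.7, 49.7 and 42.2 CPM against 251, 239, 268 and 237 CPM (-2.501 ± 0.0662, adjusted p = 5.29e-17), with Parental at 632 ± 18.3. The 2'-5'-oligoadenylate synthetase-like gene Oasl2 was 6.23, 6.28, 6.44 and 5.93 CPM against 35.9, 38.2, 38.4 and 34.1 CPM (-2.56 ± 0.0741). The groups did not overlap for any of these genes, which the ranking that named them required. The spread within a group was small beside the gap.

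Apol9a and Apol9b, apolipoprotein L genes with near-identical sequence between which reads could be split, had the lowest log2 fold changes among the genes ranked. Apol9a was 2.497, 2.26, 2.78 and 2.55 CPM in ORP5/8 KD and 39.2, 37.8, 41.7 and 35.6 CPM in ATP11A/C KD (15.3 times, log2 fold change -3.94 ± 0.0957), and Apol9b 0.447, 0.537, 0.713 and 0.403 CPM and 11.01, 9.19, 11.4 and 10.1 CPM (-4.298 ± 0.159). Ifi44l, an interferon-induced gene of unclear role, differed by -2.08 ± 0.0874, with 21.9 to 28.1 CPM in ORP5/8 KD and 93.9 to 124 CPM in ATP11A/C KD. Among members chosen after their values were seen, the RNA-binding Ifit1 (-1.62) and Ifit3 (-1.65), the antiviral enzyme Rsad2 (-1.27) and the GTPase Gbp2 (-1.36) were all lower in ORP5/8 KD, and Irf9 (-0.404), which encodes a part of the factor that reads the element, was lower by less.

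The exception was Ifi27, an interferon-induced gene of mitochondrial and nuclear membranes, chosen after its value was seen. It was 111, 109, 109.6 and 106 CPM in ORP5/8 KD and 51.8, 51.6, 52.8 and 50.2 CPM in ATP11A/C KD, with Parental lowest at 28.9 ± 2.48 (log2 fold change ORP5/8 KD against ATP11A/C KD 1.08 ± 0.0565, adjusted p = 2.77e-12). The order of the groups for Ifi27 was thus the reverse of that for Isg15.

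The response element was looked for in the promoters to show what genes of the list share on the DNA, whether or not they were called. The letters GAAA, 2 bases of any kind and GAAA again were searched on both strands of the 250 bases before the gene start in RefSeq promoters (GRCm38.p6), which covered 59 of the 78 genes. They occurred in 31 of these 59 (52.5%; 27 of 54 called lower and 4 of the 5 not called lower), against 2.98% of all 32851 promoter windows and 3.48% of the genes tested that have such a window. The median log2 fold change was -1.27 for the 31 genes with a match and -1.07 for the 28 without. A match describes letters and not a bound site. Oasl2, Irf7 and Ifi44l were not among the 31, for want of a match or of a covered promoter. The match nearest to the gene start and its flanks are given for Isg15, Ifit1, Apol9a and Apol9b. They are written 5′ to 3′ on the gene's strand with the match in capitals. A match written with TTTC is on the opposite strand.
Isg15 (chr4:156200850-156200909, minus strand): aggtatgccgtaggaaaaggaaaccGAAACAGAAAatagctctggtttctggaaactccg
Ifit1 (chr19:34640779-34640838, plus strand): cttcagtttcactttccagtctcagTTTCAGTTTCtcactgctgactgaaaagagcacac
Apol9a (chr15:77411099-77411158, minus strand): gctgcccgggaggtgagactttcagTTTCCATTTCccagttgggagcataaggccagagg
Apol9b (chr15:77729016-77729071, plus strand): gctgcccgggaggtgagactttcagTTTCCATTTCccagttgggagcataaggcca
The Apol9a and Apol9b stretches were identical over 56 bases, although the genes lie apart on chromosome 15 on opposite strands, and Isg15 held 3 matches in its window.

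Differences were smaller among the genes that produce and sense interferon. Of 26 tested genes of interferon production and receptor signalling, 15 were lower and 2 higher in ORP5/8 KD (median -0.14). These were 57.7% and 7.69%, against 20.4% and 18.2% of all genes. Upper-quartile scaling gave 12 and 4. The kinase Ikbke, which activates interferon regulatory factors, was 16.7, 15.7, 17.1 and 15.5 CPM against 27.6, 29.2, 28.8 and 24.998 CPM (-0.76 ± 0.0636, adjusted p = 3.75e-09). The RNA editing enzyme Adar (-0.55), the regulatory factor Irf5 (-0.52) and the dNTP hydrolase Samhd1 (-0.51) were also lower.

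Inflammatory genes were lower in ORP5/8 KD as well. Of 17 tested cytokines and effector enzymes, 12 were lower and 4 higher (70.6% and 23.5%, against 20.4% and 18.2% of all genes, median -0.82). Of 18 NF-kB subunits and feedback regulators, 15 were lower and 1 higher (83.3% and 5.56%, median -0.39). The higher ones numbered 2 without ORP5/8 KD 3 or ATP11A/C KD 4. Tnf, the cytokine that gives the TNF family its name, was 19.7, 17.8, 20.9 and 21.4 CPM in ORP5/8 KD and 49.6, 62.2, 62.7 and 61.8 CPM in ATP11A/C KD (log2 fold change -1.57 ± 0.0758, adjusted p = 7.48e-13), and the ATP11A/C KD level was not shown to differ from Parental at 65.7 ± 3.701 (adjusted p = 0.101). The same held for the NF-kB subunit Relb and the inhibitor Nfkbia, with log2 fold changes between the KD groups of -1.09 and -0.71, where ATP11A/C KD against Parental gave adjusted p = 0.359 and 0.906. Relb was chosen after its value was seen.

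Ptgs2, the inducible cyclooxygenase, was 2.97, 3.01, 2.75 and 3.303 CPM in ORP5/8 KD and 10.02, 12.6, 12.7 and 13.1 CPM in ATP11A/C KD (-2.003 ± 0.109, adjusted p = 4.63e-12). Parental lay between them at 9.403 ± 1.26 CPM. Marcksl1, an actin-linked protein induced by microbial stimuli, was 22.5, 24.1, 24.9 and 23.4 CPM against 100.5, 90.4, 88.7 and 90.4 CPM (-1.96 ± 0.0494). The adhesion ligand Icam1 (-0.65), the signalling adaptor Traf1 (-1.49) and the feedback regulator Tnip3 (-0.95) were lower too. Against them stood Tnfaip2, a TNF-induced gene of membrane protrusions, at 186, 183, 191 and 189.97 CPM in ORP5/8 KD and 102, 96.4, 92.1 and 91.8 CPM in ATP11A/C KD (0.97 ± 0.0434, adjusted p = 2.03e-13).

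Of 11 tested chemokines, 7 were lower and 1 higher in ORP5/8 KD (63.6% and 9.09%, against 20.4% and 18.2% of all genes). Leaving out ORP5/8 KD 1, 2 or 4 or ATP11A/C KD 1, 3 or 4 removed the single higher call. Ccl3 was 31.1 ± 2.38 CPM against 56.4 ± 2.53 (-0.86), Ccl4 5.101 ± 0.358 against 10.3 ± 1.14 (-1.01), and Cxcl10, which is also an interferon target, 1.68 ± 0.311 against 4.797 ± 0.581 (-1.51). Gpr84, a receptor for medium-chain fatty acids named here after its value was seen, was 25.2, 27.2, 26.5 and 27.9 CPM against 96.97, 91.4, 93.1 and 97.7 CPM (-1.83 ± 0.0444). The immediate-early genes Fos (-1.105), Egr1 (-0.99) and Dusp6 (-0.98) were lower in a list with 11 of 27 members lower and 2 higher (40.7% and 7.41%).

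**Figure D4:**
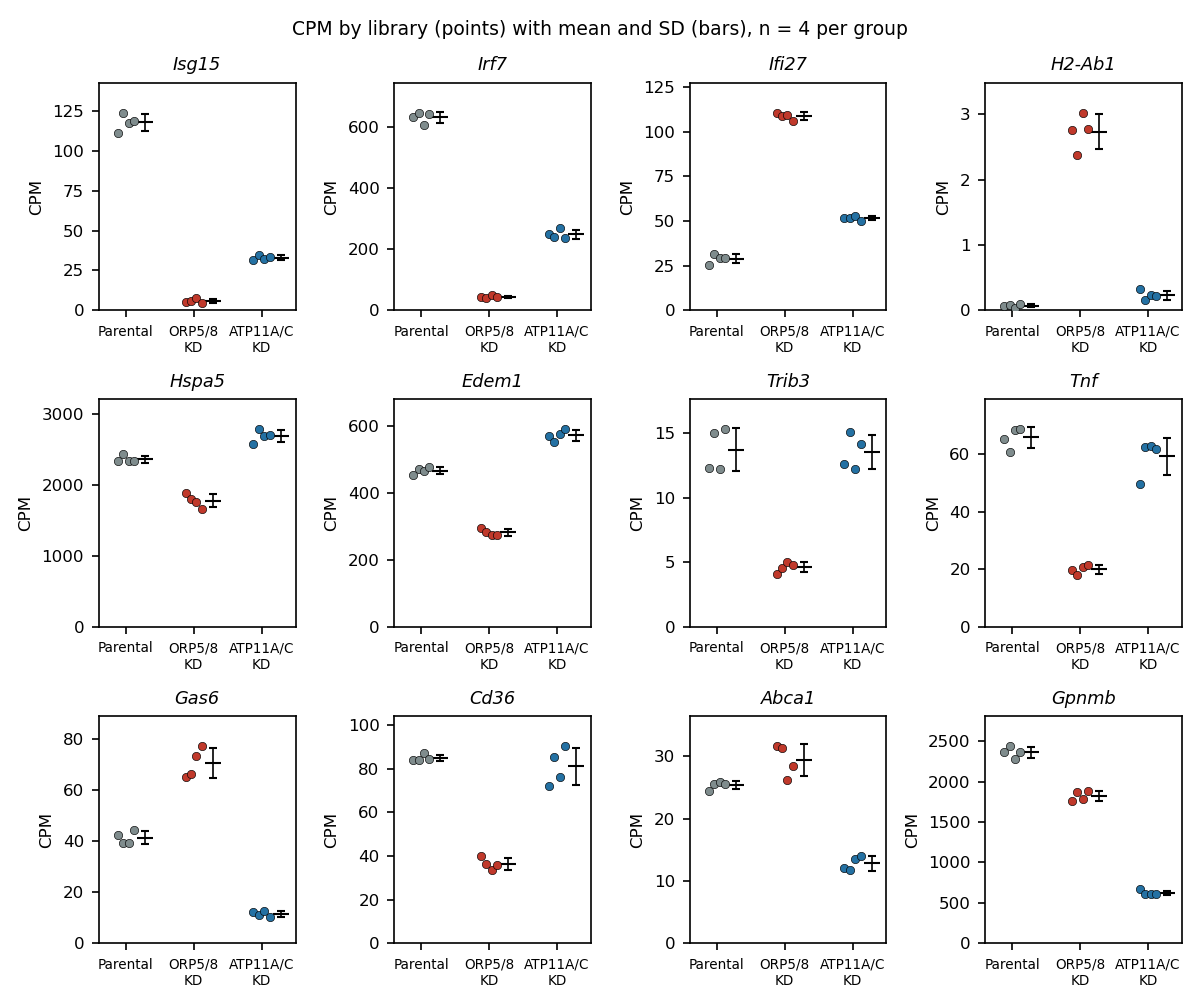
CPM (y axis, from 0) of 12 genes in the 4 libraries of Parental, ORP5/8 KD and ATP11A/C KD (points) with the mean and SD (bars). ORP5/8 KD and ATP11A/C KD do not overlap in any panel, which follows in part from how the genes were chosen. They came from the ranking, from the smallest adjusted p in a list or after their values were seen. H2-Ab1 passed the low-count filter only through ORP5/8 KD. For Hspa5 and Edem1 the KD groups lie on opposite sides of Parental, and for Isg15 and Irf7 both lie below it.

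Antigen presentation genes are described by class. Class II molecules, which present peptides from endocytosed material, rest on the transactivator Ciita. Ciita was 2.73, 3.08, 2.24 and 3.195 CPM in ORP5/8 KD and 0.0247, 0, 0.04801 and 0.03102 CPM in ATP11A/C KD, against 0.0818 ± 0.0576 in Parental. The class II chain H2-Ab1 was 2.76, 2.38, 3.02 and 2.77 CPM against 0.322, 0.1502, 0.24004 and 0.217 CPM, with 433 and 35 counts summed. H2-Aa had 247 counts summed over ORP5/8 KD and 3 over ATP11A/C KD, those 3 all in ATP11A/C KD 1. The depth-adjusted ratio was 76.5 (95% exact counting interval 25.9 to 374). That interval pools the libraries of a group and leaves out the spread between them. Through the low-count filter described below, H2-Aa had to be higher in ORP5/8 KD, so the interval is not read as a test. H2-Eb1 had 285 counts against 0, at least 88.3-fold higher when 3 counts over the group are taken as the limit, which covers counting error only. All 4 were expressed at low levels even in ORP5/8 KD.

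Of 11 class II genes listed, 9 passed the low-count filter. Ciita, H2-Aa, H2-Eb1, H2-Ab1 and H2-DMb1, the last named after its value was seen, passed only through the ORP5/8 KD libraries, so that they had to be higher there, and no count or median over the list is read. Of the other 4, H2-DMa was called higher and none lower by edgeR. The peptide-exchange gene H2-DMa, named after its value was seen, was 10.3 ± 0.637 CPM against 6.92 ± 0.894 (0.58). Cd74, the invariant chain, was not called: 216, 258, 269 and 254 CPM in ORP5/8 KD and 315, 236, 254 and 275 CPM in ATP11A/C KD overlapped (-0.12 ± 0.0848, adjusted p = 0.3002). The summed dendritic cell markers, 6 genes of which 2 had no count in the 8 libraries, were 4.88 to 5.88 CPM in ORP5/8 KD. In ATP11A/C KD the sum was 4.48 to 5.55 CPM. Of the 4 tested, Itgax was called higher in ORP5/8 KD (1.00) and Zbtb46 lower (-0.50). With a library left out, 0 to 1 were called lower. The part of these markers in the class II result was not tested.

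Class I molecules present peptides from the cytosol and are induced by interferon. Of 22 tested class I and peptide-loading genes, 21 were lower and 1 higher in ORP5/8 KD (95.5% and 4.55%, against 20.4% and 18.2% of all genes, median -0.47). The non-classical gene H2-T24 was 38.1, 35.2, 36.3 and 35.04 CPM against 115, 99.3, 128 and 112 CPM (-1.65 ± 0.0585, adjusted p = 5.52e-15), H2-T23 differed by -1.13, and Tap1, the peptide transporter, by -0.66. The single higher gene was H2-M3, which presents formylated peptides (0.31, adjusted p = 0.0151; 0.26 and 0.0548 without ORP5/8 KD 3). Calr and Pdia3, described with the ER chaperones, belong to the 21 as peptide-loading genes. Class I genes share sequence, and the authors' counting could split reads among them. Tap1 and H2-M3 were named after their values were seen.

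Most ER chaperone genes were below Parental in ORP5/8 KD and above it in ATP11A/C KD. They belong to the unfolded protein response, in which ATF6 and XBP1 raise folding and degradation capacity when proteins accumulate in the ER. Of 29 tested, 24 were lower in ORP5/8 KD (82.8%, against 20.4% of all genes) and none was higher by edgeR, with a median of -0.38. Against Parental, 23 were lower and 2 higher in ORP5/8 KD (median -0.27), while 2 were lower and 18 higher in ATP11A/C KD (median 0.16). Over all genes, 24.3% were lower and 22% higher in ORP5/8 KD, and 20.2% and 17.4% in ATP11A/C KD. These comparisons share the Parental libraries.

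Edem1, which draws misfolded glycoproteins into degradation, was 296, 284, 275 and 274 CPM in ORP5/8 KD and 572, 553, 577 and 592 CPM in ATP11A/C KD, with Parental at 467 ± 10.5. No library of either group reached the other, and the means differed 2.03 times (log2 fold change -1.02 ± 0.0384, adjusted p = 1.29e-14). Hspa5, the main ER chaperone BiP, was 1883, 1806, 1753 and 1665 CPM against 2575, 2785, 2684 and 2698 CPM (-0.596 ± 0.0392, adjusted p = 9.54e-11), and Parental at 2358 ± 47.03 fell between. It was named after its value was seen.

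The secreted ER protein Creld2 was 89.4, 95.3, 98.8 and 92.98 CPM against 189.8, 184, 181 and 179 CPM (-0.96 ± 0.0432), and the ER-derived factor Manf 185, 189.6, 192 and 183 CPM against 373, 396, 350.2 and 339 CPM (-0.96 ± 0.0464). The disulfide isomerases Pdia4 (-0.79) and Pdia3 (-0.81) and, chosen after their values were seen, the chaperones Hyou1 (-0.75), Hsp90b1 (-0.41) and Calr (-0.34) were lower in ORP5/8 KD. Not all members moved. Xbp1 itself was 299.997, 298, 299 and 295 CPM and 302, 310.03, 286 and 296 CPM (log2 fold change -0.0026, adjusted p = 0.965), above Parental at 251 ± 5.25 in both groups (adjusted p = 8.51e-06 and 1.08e-05). Its sign turned under upper-quartile scaling and under other settings, and the deposited gene counts do not tell its spliced from its unspliced form. The co-chaperone Dnajb9 was 17.6 ± 1.31 CPM against 16.1 ± 1.396 (0.12, adjusted p = 0.199). Both were named after their values were seen.

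**Figure D5:**
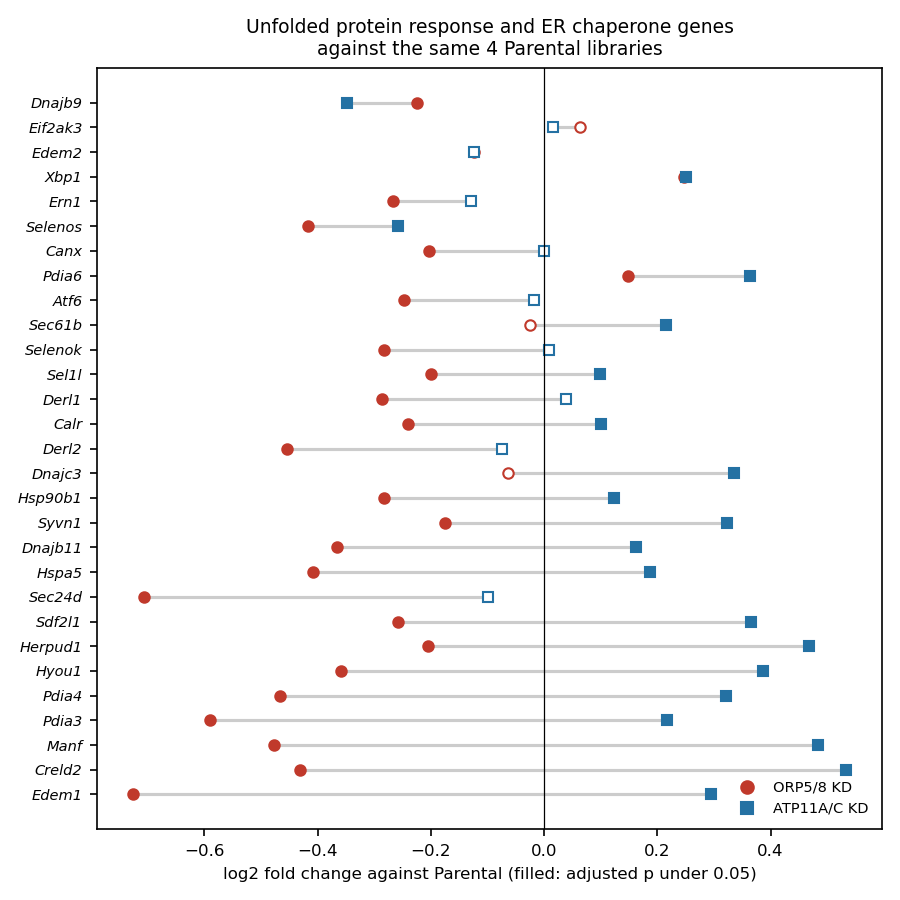
Log2 fold change against Parental (x axis) of the 29 tested unfolded protein response and ER chaperone genes in ORP5/8 KD (red circles) and ATP11A/C KD (blue squares), filled where the adjusted p was under 0.05. Edem1 stands at -0.73 and 0.30, Creld2 at -0.43 and 0.53, and Xbp1 at 0.25 in both.

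A promoter element known from these genes is the ER stress response element, searched as CCAAT, 9 bases of any kind and CCACG. On both strands of the 250 bases before the gene start it was found in 8 of the 25 chaperone-list genes with a RefSeq promoter (32%), against 0.113% of all windows and 0.129% of genes tested that have a window. All 8 were among the 20 called lower that have a window, and the 5 not called lower had no match. With only 5 such genes, this cannot show that the element goes with the call. A match describes letters and not a bound site. The stretches of Hspa5, Hsp90b1, Calr and Creld2 are shown to set the element beside the values above, with the element in capitals; one starting CGTGG is on the opposite strand.
Hspa5 (chr2:34772000-34772068, plus strand): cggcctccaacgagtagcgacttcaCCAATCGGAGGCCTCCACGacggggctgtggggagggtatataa
Hsp90b1 (chr10:86705508-86705576, minus strand): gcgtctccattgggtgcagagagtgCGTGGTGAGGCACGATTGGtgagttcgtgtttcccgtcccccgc
Calr (chr8:84847050-84847118, minus strand): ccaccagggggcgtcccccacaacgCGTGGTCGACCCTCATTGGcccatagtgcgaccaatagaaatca
Creld2 (chr15:88819495-88819563, plus strand): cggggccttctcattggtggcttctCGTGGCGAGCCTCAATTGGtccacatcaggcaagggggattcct
The median log2 fold change was -0.40 for the 8 genes with the element and -0.30 for the 17 without.

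Genes of the integrated stress response, which ATF4 switches on for amino acid supply when translation initiation is held back, were lower in ORP5/8 KD too. Of 25 tested, 20 were lower and 2 higher (80% and 8%, against 20.4% and 18.2% of all genes, median -0.33). Here ATP11A/C KD against Parental had a median of 0.08, with 8 higher and 3 lower, where 17.4% and 20.2% of all genes were called. ORP5/8 KD lay below Parental (median -0.31), with 3 higher and 19 lower, where 22% and 24.3% of all genes were called. Trib3, a pseudokinase induced by ATF4, was 4.13, 4.53, 5.01 and 4.83 CPM in ORP5/8 KD and 12.6, 15.1, 12.2 and 14.2 CPM in ATP11A/C KD (-1.55 ± 0.108, adjusted p = 2.4e-10). Asparagine synthetase, Asns, was 119.6, 116, 116 and 115 CPM against 168, 186, 173 and 174 CPM (-0.59 ± 0.0464), and Atf4 itself 216, 206, 216 and 215 CPM against 289.6, 303, 285 and 292 CPM (-0.45 ± 0.0391). The mitochondrial folate enzyme Mthfd2 (-0.43), chosen after its value was seen, was lower, and Stc2, a secreted glycoprotein also chosen after, was higher at 35.1 ± 2.34 CPM against 20.9 ± 2.57 (0.75).

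Lipid genes divided between cholesterol synthesis and export. Of 26 tested cholesterol synthesis and uptake genes, 16 were lower in ORP5/8 KD (61.5%, against 20.4% of all genes) and none higher by edgeR (median -0.22). Fdps, which makes farnesyl diphosphate, was 401, 424, 420.1 and 397 CPM against 525, 513, 508 and 525 CPM (-0.34 ± 0.04104, adjusted p = 1.16e-06), and Acat2, an acetyl-CoA acetyltransferase, 94.03, 92.8, 92.2 and 87.9 CPM against 107, 111, 111 and 114 CPM (-0.27 ± 0.0373). Neither overlapped between the groups. These were small differences next to those of the immune genes.

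Targets of the liver X receptors, which sense oxysterols and drive cholesterol export, were higher for 7 of 16 and lower for 2 (median 0.15). These were 43.8% and 12.5%, against 18.2% and 20.4% of all genes. The exporter Abca1 was 31.7, 31.4, 26.2 and 28.5 CPM in ORP5/8 KD and 12.02, 11.7, 13.5 and 14.1 CPM in ATP11A/C KD, 2.297 times as high (1.200 ± 0.07199, adjusted p = 2.38e-11), with Parental at 25.3 ± 0.647. The phospholipid transfer protein Pltp was 35.1, 38.95, 39.8 and 41.9 CPM against 22.3, 18.8, 16.6 and 18.2 CPM (1.04 ± 0.0857), and Abcg1 179, 196, 196 and 188 CPM against 148, 106, 121 and 139 CPM (0.56 ± 0.0746). Apoc2, the activator of lipoprotein lipase, named after its value was seen, was 1.202 ± 0.215 against 0.455 ± 0.0867 CPM (1.41), whereas the lipase itself, Lpl, was lower in ORP5/8 KD (485 ± 22.4 against 661 ± 15.4 CPM, -0.45).

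Relatives of the targeted proteins were called in both directions. Of 9 tested oxysterol-binding proteins, 4 were higher and 2 lower in ORP5/8 KD (44.4% and 22.2%, against 18.2% and 20.4% of all genes, median -0.01). Osbpl2, which encodes ORP2, was 36.5, 37.8, 37.6 and 34.6 CPM against 25.3, 23.8, 25.1 and 22.7 CPM (0.595 ± 0.0514, adjusted p = 6.53e-09), and Osbpl3, which encodes ORP3, 21.03, 21.1, 20.5 and 21.2 CPM against 14.1, 13.999, 14.2 and 15.4 CPM (0.54 ± 0.0579). Osbpl11 was higher by 0.22, and Osbpl10, at 0.807 ± 0.155 CPM against 1.36 ± 0.256 and named after its value was seen, was lower (-0.75, adjusted p = 0.0139). Besides Atp11a, no P4-ATPase or CDC50 gene was called higher by edgeR in ORP5/8 KD and 4 of 10 were lower: Atp8b4 (-0.42), Atp11b (-0.28), Atp8b2 (-0.26) and Atp10d (-0.18). Atp10d completes that count and was named after its value was seen. Atp11b stood at 70.9 ± 4.23 CPM in ORP5/8 KD, against 85.9 ± 7.17 in ATP11A/C KD, with Parental at 83.7 ± 0.825.

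Other genes of contact sites and lipid transfer were higher for 7 of 20 and lower for 5 (35% and 25%, against 18.2% and 20.4% of all genes). The lower ones numbered 3 without ORP5/8 KD 2 and under upper-quartile scaling. The tether Esyt1, which also binds the plasma membrane from the ER, was 129.6, 136, 142 and 135 CPM against 116, 100, 109 and 103 CPM (0.34 ± 0.0488), and Vapb, the ER anchor of many lipid transfer proteins, 124 ± 2.44 against 101 ± 2.72 (0.29). The phosphatidylinositol transfer protein Pitpnm2 was lower (19.9 ± 1.29 against 29.4 ± 2.86, -0.57). Of 10 tested scramblases, which let lipids cross the bilayer in both directions, 3 were lower and 1 higher (30% and 10%, median -0.05). The lower ones were Tmem41b (-0.52), Atg9a (-0.37) and Ano10 (-0.31), and the higher one was Plscr4 (0.83).

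Among 26 tested genes of phospholipid synthesis, 6 were higher and 8 lower (23.1% and 30.8%, against 18.2% and 20.4% of all genes). Upper-quartile scaling gave 10 and 6. Ptdss2, a phosphatidylserine synthase, was 51.9, 53.6, 54.3 and 54.7 CPM against 43.98, 39.4, 42.2 and 40.9 CPM (0.36 ± 0.05197, adjusted p = 8.88e-06), while Ptdss1, the other synthase, overlapped between the groups (79.9 ± 1.82 against 73.4 ± 2.88, 0.12, adjusted p = 0.0311). The Ptdss1 call was lost without ORP5/8 KD 2 or 3 or ATP11A/C KD 2, 3 or 4 (adjusted p = 0.0544 to 0.0732), in a fit of the 2 groups alone (0.0502) and with no low-count filter (0.0529). Ptdss1 was named after its value was seen. Mboat1, an acyltransferase that acts on lysophosphatidylserine, was higher (0.64), and Lpcat2 (-0.58) and Pcyt1a (-0.301), enzymes of phosphatidylcholine synthesis and remodelling, were lower. The phosphoinositide kinase Pip4k2a was lower (-0.45), in a list with 11 of 31 higher and 6 lower (35.5% and 19.4%). The higher ones numbered 7 without ORP5/8 KD 1 or ATP11A/C KD 2.

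Of 23 tested genes by which macrophages recognise phosphatidylserine, 6 were higher in ORP5/8 KD (26.1%, against 18.2% of all genes). A further 5 were lower (21.7%, against 20.4%), and the median was -0.02. Gas6, the bridge between phosphatidylserine and TAM receptors, was 65.04, 66.4, 73.3 and 77.4 CPM in ORP5/8 KD and 12.4, 11.2, 12.7 and 10.2 CPM in ATP11A/C KD, with Parental between at 41.4 ± 2.48. The means differed 6.06 times (log2 fold change 2.59 ± 0.0735, adjusted p = 1.72e-16), while the TAM receptor gene Mertk was close to undetected. Axl, another TAM receptor gene, named after its value was seen, was 1.16, 0.9803, 1.13 and 1.05 CPM against 0.717, 0.661, 0.552 and 0.3102 CPM (0.93 ± 0.225, adjusted p = 0.00241), with Parental at 3.302 ± 0.324. Mfge8, the bridge to integrins, showed the opposite order, 39.6, 46.03, 46.7 and 44.9 CPM against 82.6, 68.1, 78.5 and 76.2 CPM with Parental at 57.5 ± 3.58 (-0.79 ± 0.0635, adjusted p = 2.43e-09). The scavenger receptor Cd36 was 40.2, 36.3, 33.5 and 35.8 CPM against 72.1, 85.2, 76.2 and 90.5 CPM (-1.15 ± 0.0698), and ATP11A/C KD was not shown to differ from Parental (84.96 ± 1.52; adjusted p = 0.452). The phosphatidylserine receptors Cd300a (0.48) and, named after its value was seen, Trem2 (0.29) were higher in ORP5/8 KD.

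Receptors for opsonins and microbial patterns had 6 of 29 higher and 8 lower (20.7% and 27.6%, against 18.2% and 20.4% of all genes). Upper-quartile scaling gave 9 and 7. The beta-glucan receptor Clec7a was 24.2, 22.1, 20.5 and 21.5 CPM against 10.2, 12.1, 9.58 and 10.7 CPM (1.05 ± 0.07402, adjusted p = 2.71e-10). Tlr8, an endosomal sensor of RNA named after its value was seen, was 3.97, 3.43, 2.68 and 3.54 CPM against 0.816, 1.14, 0.744 and 0.992 CPM (1.89 ± 0.189). Both were higher in ORP5/8 KD without overlap. Tlr2, a sensor of bacterial lipoproteins, was 231, 211, 214 and 206 CPM against 311, 343, 323 and 348 CPM (-0.62 ± 0.0425). The Fc receptor Fcgr1 (-0.59) and the RNA sensor Tlr3 (-0.92) were lower, as was Tlr2. Of 33 actin and phagocytic cup genes, 16 were lower and 4 higher (48.5% and 12.1%). The long-tailed myosin Myo1f, among the higher ones, was 267 ± 7.85 against 158 ± 14.1 CPM (0.76). Of 17 leukocyte integrin and adhesion genes 9 were lower and 3 higher (52.9% and 17.6%), with Itgal, the LFA-1 alpha chain, at -1.33 and Itga4 at 0.54.

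Of 28 genes of LC3-associated phagocytosis and the NADPH oxidase, 5 were higher and 6 lower (17.9% and 21.4%, near the shares over all genes; median 0.03; 7 and 5 under upper-quartile scaling). Rubcn, which directs this pathway, was 37.9, 38.2, 38.5 and 36.8 CPM in ORP5/8 KD and 39.1, 31.2, 38.7 and 34.99 CPM in ATP11A/C KD (log2 fold change 0.07 ± 0.0576, adjusted p = 0.367). Map1lc3b, which encodes LC3B, was 78.05, 84.4, 86.1 and 83.7 CPM and 86.1, 82.1, 83.8 and 83.4 CPM (-0.014, adjusted p = 0.814), above Parental at 65.4 ± 1.39 in both groups (adjusted p = 2.05e-07 and 1.83e-07). Its sign between the KD groups turned under upper-quartile scaling. Cybb, the catalytic NADPH oxidase subunit, was slightly lower (-0.14, adjusted p = 0.0136; 0.0974 under upper-quartile scaling, 0.0637 without ORP5/8 KD 3 and 0.0589 without ATP11A/C KD 4), and Ncf1, a cytosolic subunit, higher (0.201, adjusted p = 0.000557). These 4 were named after their values were seen.

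Within the same list, the LC3 protease Atg4c was 22.8, 21.7, 21.2 and 22.8 CPM against 13.7, 12.4, 12.3 and 14.2 CPM (0.75 ± 0.0671, adjusted p = 1.14e-08). Tecpr1, a lysosome-linked adaptor of autophagy, was 31.1, 32.1, 32.3 and 32.8 CPM against 22.3, 21.2, 24.5 and 20.3 CPM (0.54 ± 0.0643), and Pik3c3, the lipid kinase VPS34, differed by 0.33. Of 28 tested genes of canonical autophagy, 15 were higher and 5 lower (53.6% and 17.9%, against 18.2% and 20.4% of all genes, median 0.17). The lower ones numbered 2 without ORP5/8 KD 1, 3 without ORP5/8 KD 2 or 4 or ATP11A/C KD 3 or 4, and 1 under upper-quartile scaling. The initiating kinase Ulk1 was 26.7 ± 1.47 against 19.6 ± 1.17 CPM (0.45), and the lipid transfer protein Atg2b 112 ± 1.58 against 88.9 ± 4.17 (0.33). The cargo receptor Sqstm1 was lower by a small amount (-0.14, adjusted p = 0.0209; 0.126 under upper-quartile scaling, 0.066 in a fit of the 2 groups alone, 0.0983 without ORP5/8 KD 1 and 0.098 without ATP11A/C KD 1) and was named after its value was seen.

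Of 48 lysosomal genes, 23 were higher and 6 lower in ORP5/8 KD (47.9% and 12.5%, against 18.2% and 20.4% of all genes, median 0.12). Against Parental, ORP5/8 KD had 11 higher and 30 lower, where 22% and 24.3% of all genes were called. ATP11A/C KD had 4 higher and 38 lower, where 17.4% and 20.2% of all genes were called. The cathepsin Ctsk, a collagen-degrading protease, was 4.55, 2.68, 3.69 and 3.71 CPM against 0.816, 0.841, 0.9602 and 1.02 CPM (2.002 ± 0.172, adjusted p = 6.42e-09), and Ctsf 55.1, 63.04, 63.9 and 61.5 CPM against 33.99, 28.5, 33.01 and 30.5 CPM (0.95 ± 0.0561). The glycolipid enzyme Gla, alpha-galactosidase, was 47.1 ± 1.44 against 30.4 ± 1.396 (0.63), and Psap, the precursor of the saposins, 1228 ± 55.1 against 854 ± 37.9 (0.53). Naglu (0.805) and Lgmn (0.37), chosen after their values were seen, were higher too. The aspartic protease Ctse ran against them, at 10.9, 11.04, 11.6 and 11.9 CPM in ORP5/8 KD and 35.8, 41.01, 37.5 and 38.96 CPM in ATP11A/C KD, with Parental at 17.7 ± 1.14 (-1.75 ± 0.0632, adjusted p = 6.79e-15).

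Gpnmb, a transmembrane glycoprotein of endosomes and lysosomes chosen after its value was seen, was 1760.3, 1871, 1779 and 1888 CPM in ORP5/8 KD and 666, 612, 605 and 610.3 CPM in ATP11A/C KD (1.55 ± 0.0446), with Parental at 2363 ± 66.2. The lysozyme genes Lyz1 and Lyz2 are near-identical neighbours on chromosome 10, so reads could be split between them. Lyz2 was 4237, 4291, 4229.6 and 3916 CPM against 2543, 2776, 2472 and 2537 CPM (0.69 ± 0.0428), and Lyz1 25.8, 29.7, 28.7 and 27.6 CPM against 6.58, 6.76, 6.07 and 6.36 CPM (2.12 ± 0.06204). Both KD groups were below Parental for Lyz1 and Lyz2 (172 ± 9.88 and 7207 ± 301 CPM), ATP11A/C KD the further. Of 24 macrophage identity genes, 9 were higher and 8 lower (37.5% and 33.3%, against 18.2% and 20.4% of all genes). The lower ones numbered 5 to 7 with any of the 8 libraries left out, and 5 without ATP11A/C KD 1. The fractalkine receptor Cx3cr1 was 461, 453, 451 and 456 CPM against 837, 724, 728 and 773 CPM (-0.75 ± 0.0431). Adgre1, which encodes F4/80 and was named after its value was seen, differed by -0.42.

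Cell cycle genes divided by phase. Of 27 mitotic and G2/M genes, 12 were higher in ORP5/8 KD (44.4%, against 18.2% of all genes) and none lower by edgeR (median 0.10). With any of the 8 libraries left out, 8 to 15 were higher. Of 27 replication and S phase genes, 16 were lower and 1 higher (59.3% and 3.7%, against 20.4% and 18.2%, median -0.13). The lower ones numbered 9 under upper-quartile scaling and 11 to 15 with any of the 8 libraries left out. No higher call remained without ORP5/8 KD 2 or 3 or ATP11A/C KD 2. The phosphatase Cdc25b, which triggers mitotic entry, was 91.2, 87.7, 93.5 and 95.9 CPM against 65.8, 57.4, 64.1 and 56.9 CPM (0.59 ± 0.0494), and Cenpf, a kinetochore protein, 167 ± 11.4 against 122 ± 3.55 (0.45). The replication licensing factor Cdc6 was 50.1, 49.7, 49.1 and 48.9 CPM against 62.7, 68.9, 64.9 and 64.9 CPM (-0.402 ± 0.0396), and Mcm10, another replication factor, differed by -0.26.

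Of 23 p53 targets, 14 were lower and 5 higher in ORP5/8 KD (60.9% and 21.7%, against 20.4% and 18.2% of all genes, median -0.27). Cdkn1a, the cell cycle inhibitor p21, was 108, 117, 121 and 114 CPM in ORP5/8 KD and 258, 234, 243 and 227 CPM in ATP11A/C KD (-1.06 ± 0.0512, adjusted p = 7.07e-13), and cyclin G1, Ccng1, 91.2, 79.2, 78.9 and 84.4 CPM against 148, 158, 159.7 and 173 CPM (-0.94 ± 0.0591). Fas, the death receptor, named after its value was seen, was 0.473, 0.4201, 0.516 and 0.322 CPM against 1.06, 2.704, 1.704 and 1.05 CPM (-1.897 ± 0.277). The stress-induced Sesn1, which restrains mTORC1, was higher at 133 ± 3.74 against 89.7 ± 1.22 (0.57), as was the antiproliferative Btg2 (0.697), named after its value was seen. In the BCL2 family, 8 of 14 were lower and 2 higher (57.1% and 14.3%). The survival genes Bcl2l1 (-0.82) and Bcl2a1d (-0.99), the latter a member of a multigene family with uncertain read assignment, were lower. The proapoptotic Bmf, chosen after its value was seen, was 35.2, 35.97, 34.02 and 36.3 CPM against 22.04, 14.8, 19.3 and 17.6 CPM (0.94 ± 0.0965).

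Several of the largest single-gene differences lay outside these groups or led small lists. Egln3, an oxygen-sensing prolyl hydroxylase, was 10.2, 13.4, 12.1 and 13.1 CPM in ORP5/8 KD and 1.06, 0.841, 0.744 and 0.899 CPM in ATP11A/C KD, 13.8 times as high (3.78 ± 0.169, adjusted p = 2.07e-13), with Parental between at 3.95 ± 0.263. The list of 28 glycolysis and hypoxia genes that holds it had 7 higher and 3 lower (25% and 10.7%, against 18.2% and 20.4% of all genes, median 0.01). Cxcr4, the receptor of the chemokine CXCL12, was 17.4, 16.6, 19.1 and 18.4 CPM against 2.301, 1.47, 1.37 and 2.295 CPM (3.27 ± 0.165), and ATP11A/C KD was not shown to differ from Parental (2.08 ± 0.313; adjusted p = 0.549). Ndst1, which starts the sulfation of heparan sulfate, was 35.1, 37.6, 36.3 and 37.8 CPM against 5.89, 3.76, 4.03 and 4.34 CPM (3.02 ± 0.116), whereas the keratan sulfate sulfotransferase Chst1, named after its value was seen, was lower in ORP5/8 KD (35.95 ± 2.98 against 51.3 ± 6.25, -0.51) and far above Parental (1.69 ± 0.0583) in both groups.

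Sash3 and Cd28 encode a lymphocyte signalling adaptor and a T cell costimulatory receptor. Sash3 was 52.1, 53.5, 55.1 and 50.96 CPM in ORP5/8 KD and 7.84, 7.18, 7.37 and 6.95 CPM in ATP11A/C KD (2.85 ± 0.0664, adjusted p = 1.57e-17), with Parental at 66.8 ± 2.01. Cd28 was 33.3, 34.2, 29.96 and 31.6 CPM against 4.55, 5.05, 4.99 and 5.95 CPM (2.66 ± 0.0768), with Parental at 14.2 ± 0.568. The 7 lymphocyte markers, 4 of them without a count in the 8 libraries, summed to at most 0.147 CPM in ORP5/8 KD and 0.155 CPM in ATP11A/C KD. For Sash3 both groups were below Parental, ATP11A/C KD by far the further, and for Cd28 they lay on either side of it.

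Lrrc32, which holds latent TGF-beta on the cell surface (2.23), the zinc finger protein Cxxc5 (2.09), the cell adhesion protein Opcml (2.08), the metallopeptidase Amz1 (1.98) and Stac2 (1.93) completed the 12 highest by the ranking. Cxxc5 was 12.7, 12.7, 12.5 and 12.4 CPM against 3.36, 2.25, 2.95 and 3.16 CPM. The small GTPase Rasd2 was 9.12, 9.97, 9.91 and 10.5 CPM in ORP5/8 KD, with 1567 counts summed. In ATP11A/C KD it was 0.0989, 0.03004, 0.024004 and 0.06203 CPM, with 8 counts summed, and in Parental 0.0832 ± 0.0752 CPM. Rasd2 was named after its values were seen, outside the ranking because it missed the level required. So were Card14, an NF-kB scaffold, at 7.86 ± 0.627 against 0.475 ± 0.1196 CPM with Parental at 0.511 ± 0.0832, and Timp2, a metalloproteinase inhibitor, at 5.52 ± 0.6596 against 0.365 ± 0.111 with Parental at 4.496 ± 0.598. Card14 was higher in ORP5/8 KD than in Parental (adjusted p = 1.86e-13). Rasd2 passed the low-count filter only through ORP5/8 KD, so that it had to be higher there, and no test of it is read. Its counts elsewhere are too few to compare ATP11A/C KD with Parental. Timp2 was lower in ATP11A/C KD (adjusted p = 3.61e-10; ORP5/8 KD, 0.215).

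At the lower end, Dmwd and Dmpk, the myotonic dystrophy kinase gene, are neighbours on the plus strand of chromosome 7 (on mm10, 19076227 to 19082776 for Dmwd and 19083849 to 19093821 for Dmpk). Dmwd was 2.29, 2.08, 2.33 and 1.799 CPM in ORP5/8 KD and 18.03, 15.2, 18.4 and 15.2 CPM in ATP11A/C KD, with Parental between at 6.07 ± 0.1895 (-2.98 ± 0.0986, adjusted p = 1.72e-15). Dmpk showed the same order, 11.6, 10.5, 12.8 and 11.6 CPM, 44.5, 39.3, 43.8 and 37.96 CPM and 21.4 ± 2.403 (-1.83 ± 0.0858). Igf2bp1, an mRNA-binding protein of growing cells, was 1.55, 1.56, 1.57 and 2.04 CPM against 11.2, 9.16, 10.7 and 10.4 CPM (-2.63 ± 0.144) and 0.764 ± 0.343 in Parental.

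Hpgd, which breaks down prostaglandins, was 9.33, 8.73, 7.496 and 8.35 CPM in ORP5/8 KD and 28.2, 36.8, 32.1 and 35.4 CPM in ATP11A/C KD, with Parental lowest at 1.003 ± 0.135 (-1.96 ± 0.0841, adjusted p = 1.04e-13). Among 17 tested prostaglandin genes 6 were higher and 4 lower in ORP5/8 KD (35.3% and 23.5%, against 18.2% and 20.4% of all genes). Besides Hpgd and Ptgs2 on the lower side, Ptgr2, which reduces a prostaglandin metabolite, was higher (67.99 ± 2.02 against 45.2 ± 2.27, 0.59), as was the constitutive cyclooxygenase Ptgs1 (81.5 ± 2.82 against 59.5 ± 4.01, 0.46). The 2 cyclooxygenases thus differed in opposite directions between the groups, Ptgs1 being named after its value was seen.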

How the data were processed

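Poly(A) RNA from 16 libraries was sequenced after stranded library preparation from 500 ng of RNA with 100 bp reads, per the labels' protocols. The submitters' processing notes name Trim Galore 0.5.0, STAR 2.7.5a, Picard, RSEM and the build mm10, without their roles or settings. The deposited table holds RSEM expected counts per gene from the authors; 4.63% of its values have decimals, and they were rounded to whole numbers here. The 92 spike-in rows were empty and were dropped, which left 55573 gene records. Gene coordinates are those of GRCm38 (mm10). Read assignment among near-identical genes was made by the authors and cannot be checked from the table.

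Genes were kept by filterByExpr at a minimum count of 10 (13107 genes, 99.97% of the counts). Counts were scaled by TMM and fitted with edgeR 4.0.16 (quasi-likelihood, R 4.3.3), all 16 libraries in 1 fit with a term per group and no block. Adjusted p-values are Benjamini-Hochberg over all genes tested and a call is an adjusted p under 0.05; the standard error is the log2 fold change divided by the square root of F. Means carry SDs over 4 libraries. Replicate numbers did not pair the libraries: the correlations of same-numbered deviations were -0.58, -0.11, 0.15 and 0.04 over 9806 genes. No libraries were duplicates.

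The genes named were targets, the 12 highest and 12 lowest log2 fold changes among called, non-overlapping protein-coding genes (with a mean of 10 CPM or more where higher and 10 or more counts summed where lower), and up to 4 called members of each of 39 lists by adjusted p. Members and lists were chosen with earlier results of these data known. Lists were described without a set test, and some of their genes and 1 target are not reported here. Alternatives were DESeq2 1.42.0, its size factors, upper-quartile scaling, other count filters, a replicate block, a fit of 2 groups and leaving out each library. Promoter sequences are from RefSeq (GRCm38.p6).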

Additional observations from a re-analysis of the deposited data

Results flagged for a closer look

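In groups of 4 libraries, 17 values stood further from the other 3 libraries than Dixon's 95% limit allows, among 328 groups of named genes checked; chance flags about 1 group in 20. In the ORP5/8 KD group, Irf7 was 49.7 CPM in library 3 against 41.7 to 42.2 CPM in the others, and Trem2 287 CPM in library 3 against 253 to 255 CPM. Library 2 of that group had Ifi44l at 21.9 CPM against 27.1 to 28.1 CPM and Atf4 at 206 CPM against 215 to 216 CPM. Asns was 119.6 CPM in library 1 against 115 to 116 CPM, Lyz2 3916 CPM in library 4 against 4229.6 to 4291 CPM, and Igf2bp1 2.04 CPM in library 4 against 1.55 to 1.57 CPM.

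Of the 10 values in the ATP11A/C KD group, 7 were in library 1. There Tnf was 49.6 CPM against 61.8 to 62.7 CPM in the others, and H2-M3 13.1 against 15.4 to 15.8 CPM. Marcksl1 was 100.5 CPM against 88.7 to 90.4 CPM, Stc2 24.7 against 19.1 to 20.02 CPM, Opcml 7.30 against 5.99 to 6.10 CPM and Gpnmb 666 against 605 to 612 CPM. H2-Aa was 0.0742 CPM in library 1 and had no count in the others. Pdia3 was 1466 CPM in library 2 against 1336 to 1346 CPM, Lpl 638 CPM in library 2 against 666 to 670.1 CPM, and Osbpl3 15.4 CPM in library 4 against 14.0 to 14.2 CPM. None of these genes overlapped between the ORP5/8 KD and ATP11A/C KD libraries.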

How the results depend on the processing

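The counts of genes called higher, called lower, and called at least 2-fold stayed within 1.5 times under every alternative run. With a library left out, 2112 to 2397 genes were higher and 2352 to 2604 lower, and 298 to 346 and 280 to 305 passed 2-fold. Upper-quartile scaling gave 3095 higher and 2018 lower. Replicate numbers did not pair the libraries; the replicate block gave 2320 higher and 2599 lower genes (2-fold, 310 and 289) and left 161 of 161 named genes on their side of the threshold with their direction. None of the 4 ORP5/8 KD libraries correlated best with the ATP11A/C KD library of its own number. DESeq2 also left all 161 as they were.

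Among targets, leaving out a library moved Tmem30a between -0.17 and -0.0658 and Osbpl5, which rests on 28 and 29 counts in the groups, between -0.31 and 0.23. The sign of Xbp1 turned to 0.047 under upper-quartile scaling, 0.00397 with no low-count filter, 0.00907 with a filter of 1 CPM in 4 libraries and 0.00188 in a fit of the 2 groups alone, and ranged from -0.0186 to 0.0166 with a library left out. Map1lc3b turned to 0.036 under upper-quartile scaling and ranged from -0.028 to 0.020 with a library left out. The cause was not tested; both are near 0. Calls of Cybb, Sqstm1, Ptdss1 and H2-M3 were lost under settings named above. Of the list counts, 1159 stayed within 1.5 times and 41 did not. Genes with few counts, such as Osbpl5 and the class II chains, limit what the depth can show.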
